A study of Mus musculus with 168 samples.

Results

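Cdkn1a and other known targets of the tumor suppressor p53 were followed through hypoxia and reoxygenation in 7 regions of the mouse brain. The list held 10 genes, Cdkn1a, Mdm2, Trp53inp1, Ccng1, Plk2, Plk3, Pmaip1, Bbc3, Bax and Trp53, and a probe set, the group of array probes that stands for 1 transcript, was taken where the annotation gave it to 1 of these genes alone. This found 15 probe sets for 8 of the 10 genes, among 45037 probe sets and 18193 genes with a probe set of their own. Bax and Trp53 were not analysed here.

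The arrays were Affymetrix Mouse Genome 430 2.0 arrays of total RNA from adult male C57BL/6 mice aged 8 to 9 weeks, with no genetic change in any group. Mice breathed 8% O2 for 1 h (H1) or 3 h (H3), or breathed it for 3 h and then recovered in room air for 1, 3, 6, 12 or 24 h (R1, R3, R6, R12 and R24). Control mice were sham-treated, which meant 3 h in the chambers without a change of gas followed by 24 h in the home cage, so the time since handling differed between them and every time point but R24, and its part in a change cannot be told apart from that of oxygen. Each of the 7 regions (cerebellum, pons and medulla, midbrain, thalamus, striatum, hippocampus and cerebral cortex) had 3 arrays for each of the 8 groups, the controls and the 7 time points. The 7 arrays that share a time point and a replicate number were taken to come from 1 mouse, which gives 24 mice, although the labels do not state it. The p-values of tests in single regions and on the means of each mouse measure the spread between these mice. Those of the fit of all arrays count the 7 arrays of a mouse as nearly independent. In whole tissue fewer cells of a type and less RNA per cell cannot be told apart.

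p53 is a transcription factor that is held low by Mdm2, a ubiquitin ligase that marks it for destruction, and that is stabilized by DNA damage, oxygen loss and other stresses. Its targets include brakes on the cell cycle, such as Cdkn1a, which encodes the cyclin-dependent kinase inhibitor p21, feedback regulators such as Mdm2, and death genes such as Pmaip1 (Noxa) and Bbc3 (Puma). Several of these genes also answer to other factors, and Cdkn1a, Pmaip1 and Plk2 can be induced without p53.

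Promoter windows, the 250 bases before an annotated start site in RefSeq on GRCm38.p6, were searched for 6 of the 8 measured genes (9 windows). No window of Trp53inp1 or Pmaip1 was searched, so whether they hold a match is not known here. The 4 windows shown are both starts of Cdkn1a, and those of Mdm2 and Ccng1. Of the 9 windows, the first of Cdkn1a and those of Mdm2 and Ccng1 hold a match to the p53 half-site. Capitals mark p53 half-site matches and the GC box GGGCGG or its reverse complement CCGCCC, searched on both strands, and each sequence runs 5′ to 3′ on the strand of the gene.
Cdkn1a, chr17:29090729-29090978, plus strand: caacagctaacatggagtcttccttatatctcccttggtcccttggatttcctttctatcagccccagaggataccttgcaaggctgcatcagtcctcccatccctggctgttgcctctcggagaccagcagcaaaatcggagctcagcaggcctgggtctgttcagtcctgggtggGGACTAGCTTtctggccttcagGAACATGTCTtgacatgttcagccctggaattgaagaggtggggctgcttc
Cdkn1a, chr17:29093519-29093768, plus strand: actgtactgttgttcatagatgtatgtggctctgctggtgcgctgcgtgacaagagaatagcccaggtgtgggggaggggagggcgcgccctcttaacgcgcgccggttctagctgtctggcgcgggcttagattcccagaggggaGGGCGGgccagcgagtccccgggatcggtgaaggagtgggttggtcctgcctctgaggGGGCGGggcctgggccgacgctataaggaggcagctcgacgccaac
Mdm2, chr10:117710759-117711008, minus strand: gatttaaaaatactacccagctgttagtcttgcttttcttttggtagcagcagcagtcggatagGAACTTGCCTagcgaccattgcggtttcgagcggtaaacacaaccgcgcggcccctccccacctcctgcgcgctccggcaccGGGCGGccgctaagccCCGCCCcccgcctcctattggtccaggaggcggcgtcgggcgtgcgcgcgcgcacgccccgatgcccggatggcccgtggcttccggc
Ccng1, chr11:40755287-40755536, minus strand: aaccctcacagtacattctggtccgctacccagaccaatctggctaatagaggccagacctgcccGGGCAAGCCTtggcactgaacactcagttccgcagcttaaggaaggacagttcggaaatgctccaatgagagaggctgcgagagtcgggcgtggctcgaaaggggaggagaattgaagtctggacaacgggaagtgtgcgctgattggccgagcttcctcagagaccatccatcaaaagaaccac

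The first Cdkn1a window held 2 half-site matches, from 73 to 64 and from 51 to 42 bases before the start, and no GC box, whereas the second held 2 GC boxes and no half-site match. The windows of Mdm2 and Ccng1 held 1 half-site match each. Of 32851 promoter windows of this length, 7.13% held a half-site match and 32.7% a GC box. ACGTG was held by 16.6% of them and by none of these 4 windows. It is 1 form of the core of the hypoxia response element bound by HIF. The other form, GCGTG, was not searched for, and it stands in the second Cdkn1a window and in those of Mdm2 and Ccng1. Of the other member windows, that of Plk2 held ACGTG 1 time. In 1 of the 3 windows of Bbc3 ACGTG was held 2 times, as overlapping matches on the 2 strands. A match is a description of letters, and the measured changes of the 3 genes with a half-site match in their windows differed from each other, as follows.

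Cdkn1a rose in the brain as a whole during hypoxia, stayed high through the first 3 h of reoxygenation and came down by 6 h. Pmaip1 rose by H3 and was highest at R1, and Trp53inp1 rose after the return to room air. Mdm2 fell at H3. Ccng1, Plk3 and Bbc3 passed no test of change at any time point. All changes below are differences in log2(intensity + 16), and folds are folds of intensity + 16. Both understate the change of probe sets with low intensity.

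Cdkn1a is measured by 2 probe sets. The brighter, 1424638_at, ran from 46.2 to 572 over all arrays, and the dimmer, 1421679_a_at, was below an intensity of 16 on 106 of them. In midbrain, 1424638_at read 71.2, 88.4 and 167 in the 3 controls, 73.4, 75.5 and 83.4 at H1, 213, 311 and 362 at H3, 335, 351 and 434 at R1, and 419, 324 and 572 at R3. It was 244, 162 and 200 at R6, 91.5, 79.3 and 60.1 at R12, and 56.8, 66.5 and 83.7 at R24. All 9 arrays from H3 to R3 were thus above the 3 controls, and the H1, R12 and R24 arrays lay within or below their range.

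In thalamus the same probe set read 61.9, 77.8 and 141 in controls, 161, 273 and 226 at H3, 260, 260 and 418 at R1, and 295, 303 and 357 at R3. In cerebellum it read 95.6, 188 and 283 in controls and 453, 409 and 427 at R1. Striatum had the tightest controls, 106, 116 and 101, against 305, 258 and 219 at R1. At R1 the 3 arrays stood above all 3 controls in each of these regions, and the plot of Cdkn1a on each array shows the same for the remaining ones. Of all probe sets, 0.515% did so in at least 5 of 7 regions.

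**Figure D1:**
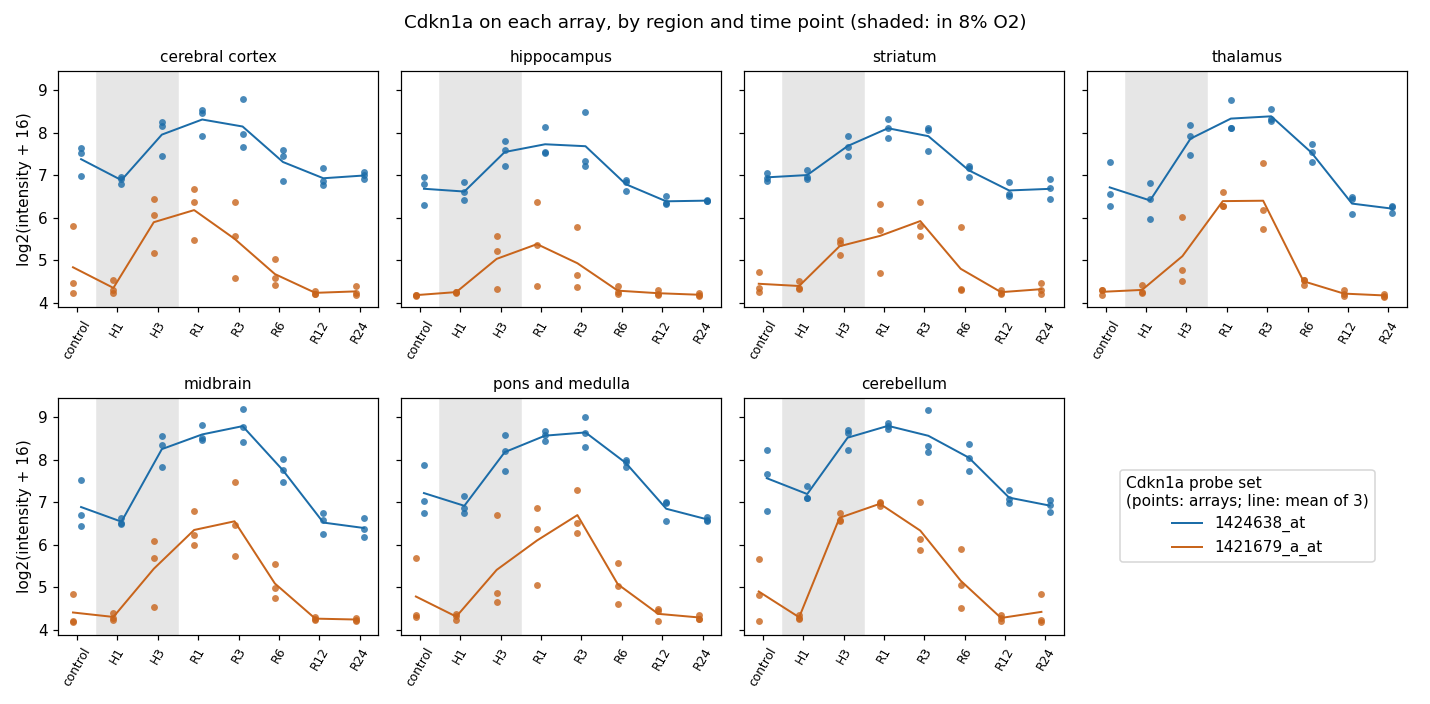
Cdkn1a on each array: log2(intensity + 16) against time point, 1 panel a region, for probe sets 1424638_at and 1421679_a_at. Points are single arrays, lines join the means of 3 arrays and the shaded band marks the time in 8% O2. The means of both probe sets are above those of the controls from H3 to R3 in all 7 regions and below or near them at R12 and R24.

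Region by region, 16 of 735 member tests (15 probe sets, 7 time points, 7 regions) passed an adjusted p of 0.05 in limma, 15 of them higher and 13 of them Cdkn1a. At R1 probe set 1424638_at rose in striatum by 1.15 (SE 0.16, adjusted p = 0.00337), in thalamus by 1.62 (SE 0.25, adjusted p = 0.00568), in cerebellum by 1.23 (SE 0.27, adjusted p = 0.0313), in the pons and medulla by 1.35 (SE 0.24, adjusted p = 0.0271), and in midbrain, where the rise was the highest of the 5, by 1.71 (SE 0.25, adjusted p = 0.00504). It was called at R3 in thalamus and midbrain (1.67 and 1.90) and at H3 in midbrain (1.36). The dimmer probe set rose at R1 in thalamus by 2.13, in midbrain by 1.94 and in cerebellum by 2.06, at R3 in thalamus by 2.14 and at H3 in cerebellum by 1.73. Cerebral cortex and hippocampus had no Cdkn1a call at a single time point.

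In at least 1 region, 2 of the 15 member probe sets were called higher at H3 (0.624% of all probe sets were), 4 at R1 (0.717% of all) and 2 at R3 (0.04% of all), and 1 was called lower at H3 (0.799% of all). Cerebellum at R1 held 4 of these member calls, against 0.488% of all probe sets. At H1, R6, R12 and R24 limma called 0 of 105 member tests each, and 8, 9, 6 and 9 of them had an unadjusted p under 0.05. Over all probe sets, from 0.0155% to 0.0422% were called higher in a region at H1, and at most 0.00666% lower. At R6 at most 0.00222% were called in any region, and at R12 and R24 0 were called in every region. The member counts of 0 are thus not particular to the members. The 3 calls that were not Cdkn1a were all in cerebellum: Mdm2 at H3, and Trp53inp1 and Plk2 at R1. Of the 16 calls, 6 passed whichever of the 6 arrays compared was left out, namely Cdkn1a 1424638_at at R1 in striatum, thalamus and midbrain, 1421679_a_at at R1 in thalamus and cerebellum, and Trp53inp1 in cerebellum, and the other 10 were lost without at least 1 array.

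Over the whole time course, by an F-test with a 1.5-fold change at 1 or more time points, Cdkn1a 1424638_at was regulated in all 7 regions, as were 0.0555% of all probe sets. Cdkn1a 1421679_a_at was regulated in 3 regions, thalamus, midbrain and cerebellum, and Trp53inp1 1416926_at in 2, cerebral cortex and cerebellum. These 3 of 15 member probe sets compare with 1.9% of all probe sets regulated in at least 1 region.

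Each presumed mouse gave 7 arrays, and Cdkn1a moved together over them. Its correlation between regions of 1 mouse around the group mean was 0.48 for 1421679_a_at and 0.47 for 1424638_at, above at least 99.7% of probe sets, against a consensus of 0.04 over all. The mean intensity of 1424638_at over the 7 regions was 85.3, 121 and 172 in the 3 control mice, 95.9, 104 and 92.8 at H1, and 191, 294 and 268 at H3. It reached 297, 314 and 352 at R1 and 290, 255 and 418 at R3, and was 199, 146 and 177 at R6, 83.2, 90.5 and 93.4 at R12, and 82.1, 84.3 and 82.5 at R24. The mice at R12 and R24 were closely alike, and the control mice were not: control replicate 3 was highest in 6 of 7 regions and control replicate 1 lowest in 6. Because the fit of all arrays uses the consensus correlation for every probe set, its error for an average over regions is too small for Cdkn1a and for other members above the consensus. These were Trp53inp1 1416926_at (0.36), Pmaip1 (0.26), Ccng1 1450016_at (0.25), Mdm2 1427718_a_at (0.24), Plk3 (0.20), Plk2 1427005_at (0.17) and, less so, Trp53inp1 1416927_at (0.07). The adjusted p of a fit on the 24 mouse means, which does not depend on the consensus, is therefore given beside the members' calls in the averages.

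**Figure D2:**
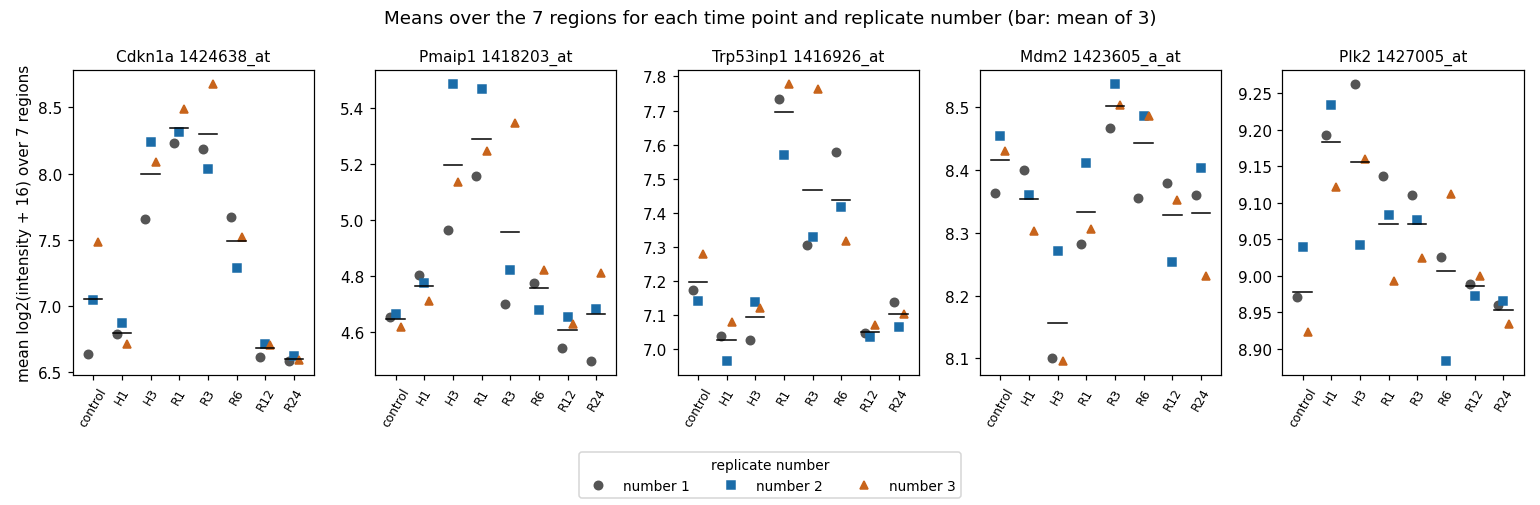
Mean of log2(intensity + 16) over the 7 regions for each presumed mouse, by time point, for 1 probe set each of Cdkn1a, Pmaip1, Trp53inp1, Mdm2 and Plk2. Each point is 1 time point and replicate number (number 1 circles, 2 squares, 3 triangles) and the bar is the mean of 3. The 3 Cdkn1a controls span 6.64 to 7.48, while its 3 values at R24 lie between 6.59 and 6.62, and the axes differ between panels.

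Averaged over the 7 regions, Cdkn1a 1424638_at rose by 0.94 at H3 (1.92-fold; SE 0.18 and adjusted p = 0.00316 on the mouse means), by 1.29 at R1 (2.45-fold; SE 0.18, adjusted p = 0.000135) and by 1.25 at R3 (2.37-fold; SE 0.18, adjusted p = 0.00149). Probe set 1421679_a_at rose by 1.59 at R1 (SE 0.28, adjusted p = 0.00137) and by 1.5 at R3 (SE 0.28, adjusted p = 0.0113). At H3 its 1.00 passed over all arrays (adjusted p = 1.04e-06) and missed on the mouse means (adjusted p = 0.0523), where it passed in 6 of the 24 refits that left out 1 mouse. At H1 the differences were -0.26 and -0.23, and neither passed. Between successive time points, both probe sets rose from H1 to H3 by 1.2 and 1.23 and fell from R3 to R6 by 0.81 and 1.25, each also on the mouse means (adjusted p = 0.00122, 0.0379, 0.0427 and 0.048 in that order). The further step from H3 to R1, 0.35 and 0.59, passed over all arrays only.

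Late differences of Cdkn1a 1424638_at depended on which control mice were kept. It stood 0.44 above the controls at R6 and 0.37 and 0.45 below them at R12 and R24, all called over all arrays. In limma on the mouse means the adjusted p was 0.59, 0.529 and 0.821 and the unadjusted p 0.0216, 0.0462 and 0.0179. Of all probe sets that fit called 12 higher and 7 lower at R6, and 0 at R12 and R24. A missing call there is therefore not particular to Cdkn1a. Without control replicate 3 the differences at R12 and R24 were -0.16 and -0.24 and passed neither. Leaving out control replicate 3 raised the R1 change to 1.51 on the mouse means (adjusted p = 3.88e-05).

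At R3 the mouse with the highest Cdkn1a was replicate 3, in 6 of 7 regions for 1424638_at. The same mouse had the highest summed intensity of 7 microglia markers at R3, 2679 against 1952 and 2044 in the other two, and of 4 blood markers, 260 against 69.8 and 103, and their part in the result was not tested. Without it, 1424638_at was 1.06 above controls at R3 (adjusted p = 0.0111 on the mouse means) and 1421679_a_at 1.13 (adjusted p = 0.0739). Without control replicate 1, 1421679_a_at was 1.35 above them (adjusted p = 0.0667).

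The 2 Cdkn1a probe sets changed in parallel: over the 49 changes from control (7 regions, 7 time points that share controls within a region) their Pearson r was 0.93. At R1 the difference of their changes, 1424638_at minus 1421679_a_at, was -0.30 on the mouse means (exact permutation test, two-sided, p = 0.4, the smallest possible being 0.1). It depended on the constant added before the logarithm, being -1.56 with 1 (exact p = 0.1) and 0.05 with 32 (exact p = 0.9), so no difference between the probe sets could be set apart from the low intensity of the dimmer one. The genes whose 49 changes were most like those of both probe sets were Ldha, which encodes a subunit of lactate dehydrogenase (r = 0.83 with 1421679_a_at and 0.89 with 1424638_at), Col4a1, a basement membrane collagen (0.84 and 0.82), the chromatin proteins Hmgb2 (0.82 and 0.81) and H1f2 (0.82 and 0.83), Tma16 (0.79 and 0.83) and Rprd2 (0.79 and 0.82). Itpk1 was among the closest for 1421679_a_at alone (0.80) and Phactr3 for 1424638_at alone (0.87). These correlations describe time courses over the same arrays and carry no test.

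Pmaip1, a BH3-only protein that binds and neutralizes inhibitors of cell death, was dim in every region: probe set 1418203_at was below 16 on 99 arrays. In midbrain it read 11.7, 8.32 and 8.54 in controls, 18.4, 36.7 and 26.6 at H3 and 29.5, 33.2 and 42.8 at R1. In pons and medulla it read 8.42, 13.48 and 7.38 in controls, 25, 35.6 and 24.7 at H3 and 17.6, 26.5 and 27.6 at R1. All 3 arrays stood above all 3 controls in 7 of 7 regions at R1, where 0.515% of all probe sets did so in at least 5. At H3 they did in 4 of 7, and the share of all probe sets is not given here. The change passed in no single region. Averaged over the regions Pmaip1 rose by 0.55 at H3 (1.46-fold in intensity + 16, SE 0.13, adjusted p = 0.0231 on the mouse means) and by 0.65 at R1 (1.56-fold in intensity + 16, SE 0.13, adjusted p = 0.00561). In plain intensity its mouse means at R1 were 21.3, 29.6 and 25.1. The call at H3 was lost on the mouse means when H3 replicate 2, the highest of the 3, was left out (0.40, adjusted p = 0.156) and, with values of 0.54 to 0.58, without any 1 of H3 replicate 3 or the 3 control mice (adjusted p from 0.0575 to 0.0714). The call at R1 held without any 1 mouse. At R3 it was 0.31 above controls (adjusted p = 0.366 on the mouse means), with mouse means of 11.1, 13.3 and 26 against 9.81, 10.2 and 9.81 in controls.

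Trp53inp1, whose product promotes p53 activity, autophagy and cell death, followed a later course. Its brighter probe set 1416926_at read 155, 144 and 165 in cerebellar controls, 117, 121 and 145 at H3, and 251, 225 and 266 at R1. In cerebral cortex it read 102, 104 and 111 in controls, 86.5, 113 and 113 at H3 and 160, 149 and 195 at R1. The H3 arrays overlapped the controls in all 7 regions. The R1 arrays were above them in 7 of 7, where 0.515% of all probe sets did so in at least 5. The rise at R1 passed in cerebellum (0.63, SE 0.11, adjusted p = 0.00612). Averaged over the regions it was 0.50 at R1 for 1416926_at (1.41-fold; SE 0.09, adjusted p = 0.00185 on the mouse means) and 0.26 for 1416927_at (1.2-fold; SE 0.07, adjusted p = 0.0453). The second was lost in 13 of 24 refits that left out 1 mouse, in 9 of which that mouse was in neither group compared; it was 0.21 without control replicate 3 (adjusted p = 0.146) and 0.24 without R1 replicate 3 (adjusted p = 0.147).

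The step from H3 to R1 was 0.60 for 1416926_at (adjusted p = 0.000833 on the mouse means) and 0.30 for 1416927_at (adjusted p = 0.0384). At H3 itself the differences from control were -0.10 and -0.04. Differences of 0.27 at R3 and 0.24 at R6 for 1416926_at passed over all arrays and not on the mouse means (adjusted p = 0.207 and 0.547). Without R3 replicate 3, the mouse with the high marker sums, the difference at R3 was 0.12.

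At R1, 3 of 15 member probe sets, those of Cdkn1a (1424638_at), Pmaip1 and Trp53inp1 (1416926_at), stood wholly above their controls in all 7 regions. The share of all probe sets was counted for at least 5 regions only. By that count the same 3 members stood above, as did 0.515% of all. Both Cdkn1a probe sets did so in 6 regions at R3. They were the only members to do so in at least 5 there, as did 0.198% of all.

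Mdm2, the ligase that turns p53 over and is itself a p53 target, moved the other way. Probe set 1423605_a_at read 380, 398 and 391 in cerebellar controls and 209, 289 and 272 at H3, with no overlap. The difference there of -0.59 (SE 0.12) passed (adjusted p = 0.0211), though not when 1 of 4 of the 6 arrays was left out, -0.45 without H3 replicate 1 being the smallest (adjusted p = 0.111). Its mouse means over the 7 regions were 316, 337 and 332 in controls, 261, 296 and 260 at H3, 299, 328 and 304 at R1 and 339, 359 and 350 at R3. Averaged over regions it fell by 0.26 at H3 (0.835-fold; SE 0.06, adjusted p = 0.0118 on the mouse means), and did not pass without control replicate 2, H3 replicate 1 or H3 replicate 3 (-0.24, -0.23 and -0.23, adjusted p = 0.0643, 0.0604 and 0.0753). A less bright probe set, 1427718_a_at, fell by 0.15 at H3 over all arrays (adjusted p = 0.0035) and not on the mouse means (adjusted p = 0.167), and the dimmest, 1457929_at, with a mean intensity of 28.2, stood at 0.03. By R1 the differences of the brighter 2 were -0.08 and -0.09 and did not pass.

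Plk2, a polo-like kinase of stress and synaptic activity, had small differences. Averaged over regions, 1427005_at rose by 0.20 at H1 and 0.18 at H3 over all arrays, and neither passed on the mouse means (adjusted p = 0.247 and 0.116), although H3 did without H3 replicate 2 (0.23, adjusted p = 0.047). In cerebellum it read 169, 190 and 176 in controls and 290, 255 and 227 at R1, with no overlap. The rise of 0.49 (SE 0.11) passed (adjusted p = 0.0296), though not when 1 of 5 of the 6 arrays was left out, with 0.40 and an adjusted p of 0.146 without R1 replicate 1. The dim probe set 1443780_at passed no test of change.

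Ccng1 (cyclin G1), measured by 3 probe sets with mean intensities of 355, 299 and 239, stayed between -0.10 and 0.04 of controls in every average. For Plk3, a stress-responsive kinase with a mean intensity of 37, the averages were 0.20 at H3 and 0.00 at R1, and for Bbc3, a BH3-only death gene with a mean intensity of 49.5, they were 0.03 and 0.15. Limma called 0 of the 35 averages of these 5 probe sets, and 3 had an unadjusted p under 0.05. On the mouse means the lowest adjusted p among them was 0.335, for Bbc3 at R1.

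**Figure D3:**
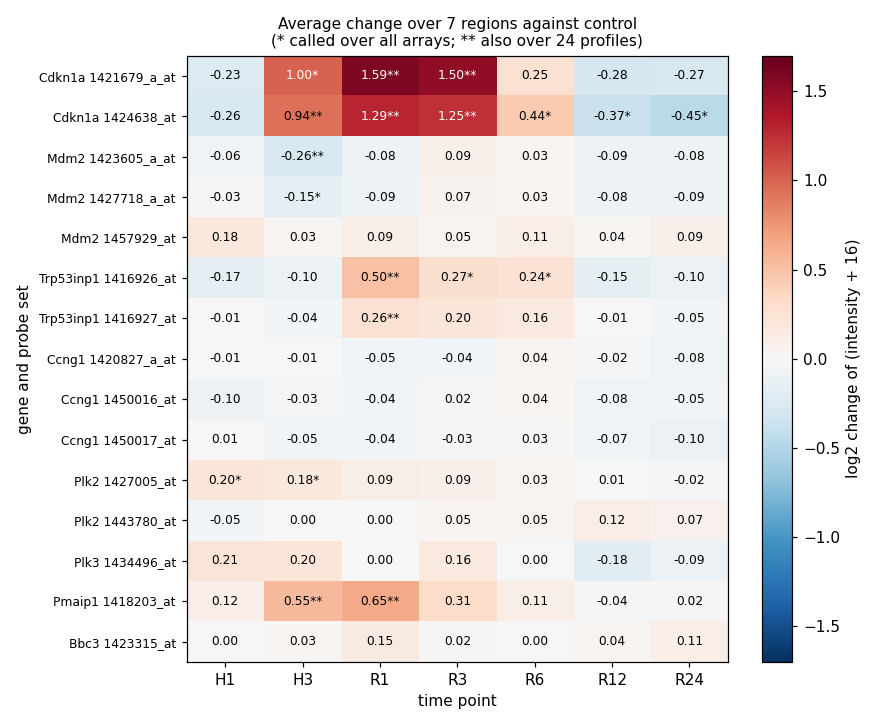
Average change over the 7 regions against control, in log2(intensity + 16), for the 15 member probe sets (rows) at the 7 time points (columns). Red is higher and blue lower, 1 star marks a call over all arrays and 2 stars a call that also passed on the 24 mouse means. The calls marked with 2 stars lie at H3, R1 and R3 and belong to Cdkn1a, Pmaip1, Trp53inp1 and Mdm2.

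In these averages the fit of all arrays called 19 of 105 member tests. Higher calls numbered 1 of 15 at H1 (0.58% of all probe sets were called higher), 4 at H3 (2.49% of all), 5 at R1 (3.91% of all), 3 at R3 (1.59% of all) and 2 at R6 (0.433% of all), and lower calls 2 at H3 (3.71% of all), 1 at R12 (0.306% of all) and 1 at R24 (0.14% of all). On the mouse means 10 remained: 2 higher at H3 (1.2% of all), 1 lower at H3 (2.16% of all), 5 higher at R1 (1.65% of all) and 2 higher at R3 (0.355% of all). At R12 and R24 0 of all probe sets passed on the mouse means. Between successive time points the fit of all arrays called 3 of 15 higher from H1 to H3 (0.977% of all) and 1 lower (1.81% of all), Mdm2 1423605_a_at at -0.20, 4 higher from H3 to R1 (2.05% of all), 2 lower and 1 higher from R1 to R3 (1.94% and 5.35% of all), Trp53inp1 1416926_at at -0.23, Pmaip1 at -0.34 and Mdm2 1427718_a_at at 0.16, and 2 lower from R3 to R6 (0.933% of all). On the mouse means these were 2 higher from H1 to H3 (0.235% of all), 2 higher from H3 to R1 (0.744% of all) and 2 lower from R3 to R6 (0.164% of all). From H1 to H3 0 were lower, and from R1 to R3 0 were higher and 0 lower. For these counts of 0 the share of all probe sets is not given here, so they are not read as a result about the members.

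The sizes of the changes varied between regions, but no member probe set passed a test of that difference. The Cdkn1a 1424638_at change ran at R3 from 0.77 in cerebral cortex to 1.90 in midbrain, and at R1 from 0.93 to 1.71 in the same pair of regions. Limma's interaction tests called 0 of 105 (lowest adjusted p = 0.443), with 13 at an unadjusted p under 0.05, among them Cdkn1a at R3, and called 0.158% of all probe sets at 1 or more time points. A region with a call and a region without one are therefore not shown to differ. For differences between regions of the same mice, the consensus correlation makes the error too large for Cdkn1a and the other members above it. For these members the tests are too strict, and a missing call does not show equal changes.

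Control levels, by contrast, differed between regions for several members, though about as often as for all probe sets (41.4%). Plk2 1427005_at read 1325, 1505 and 1443 in striatum, 1192, 1149 and 1254 in hippocampus and 1122, 1267 and 1129 in cerebral cortex, against 291, 311 and 262 in midbrain, 273, 311 and 276 in thalamus, 169, 190 and 176 in cerebellum, and 249, 207 and 175 in pons and medulla (limma F-test, adjusted p = 1.28e-13). Striatum, hippocampus and cerebral cortex did not differ between neighbours in this order, and the step of 1.97 from cerebral cortex to midbrain did (adjusted p = 3.31e-10). Between thalamus and pons and medulla the step was 0.43 (adjusted p = 0.0161), and midbrain and thalamus were level, as were pons and medulla and cerebellum within their spread.

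All 3 Ccng1 probe sets were highest in cerebral cortex and lowest in striatum, 486 ± 26 against 246 ± 12 (SD, n = 3) for 1420827_a_at, a difference of 0.94 (adjusted p = 1.31e-06), with the other regions between them. Pmaip1 was 18.8 ± 2.9 in thalamus and 18.5 ± 8.0 in cerebral cortex, from 8.78 to 9.76 in hippocampus, midbrain, and pons and medulla, 2.87 ± 2.6 in cerebellum and 1.32 ± 0.42 in striatum (SD, n = 3 each), and differed from thalamus to striatum by 1.01 (adjusted p = 9.86e-05). Trp53inp1 1416926_at ran from 154 ± 10 in cerebellum to 106 ± 4.9 in cerebral cortex (SD, n = 3), a difference of 0.49 (adjusted p = 0.00153). No pair of neighbours in the order differed for Pmaip1 or for Trp53inp1. Plk2 1443780_at, with a highest mean of 36.3 in cerebral cortex and a lowest of 10.2 in pons and medulla, also passed.

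In all, 7 of 15 member probe sets differed between regions in controls, as did 41.4% of all probe sets. Neither Cdkn1a probe set did (adjusted p = 0.508 and 0.207). The fit of the controls used a consensus correlation of 0.04 for every probe set. Spread shared by the regions of a mouse, as seen for Cdkn1a, was thus counted as error between regions. For Cdkn1a the test is too strict, and its missing call does not show equal levels. Means of 1424638_at ran from 88.4 ± 24 in hippocampus to 189 ± 94 in cerebellum (SD, n = 3 each), with the wide spread set by the control mice described above.

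**Figure D4:**
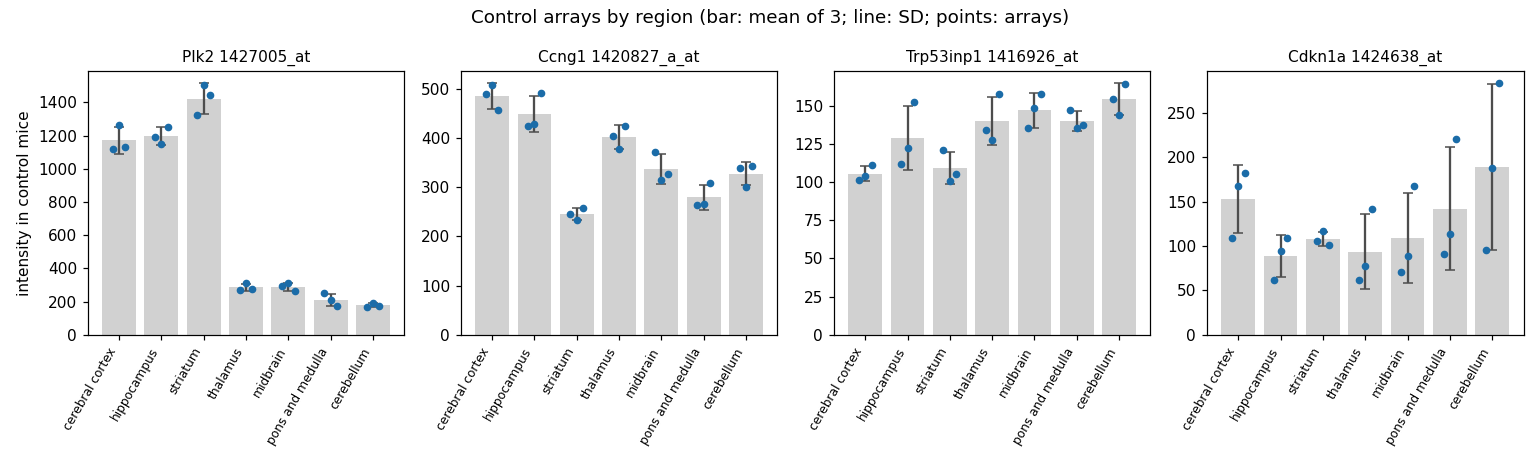
Intensity in control mice by region for Plk2, Ccng1, Trp53inp1 and Cdkn1a, 1 probe set each. Bars are means of 3 arrays, lines the SD and points single arrays. The Plk2 arrays lie between 1122 and 1505 in cerebral cortex, hippocampus and striatum and between 169 and 311 elsewhere, while the Cdkn1a arrays of a region spread from 95.6 to 283 in cerebellum.

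Of 40 other genes of the p53 network, 38 had a probe set of their own. In the average over regions 1 was called higher at H1, 4 at H3 and 5 at R1, and 0, 2 and 3 were called lower (of all probe sets 0.58% were called higher at H1, 2.49% and 3.71% higher and lower at H3, and 3.91% and 6.11% at R1). The list's median changes were 0.00 at H3 and 0.00 at R1, next to -0.01 and -0.02 for all probe sets. At H1 the call was Btg2, an antiproliferative early gene, which rose by 0.72 (adjusted p = 0.0031 on the mouse means, where 0.0977% of all probe sets were called higher).

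At R1 the stress sensor Sesn1 rose by 0.31 (adjusted p = 0.000821 on the mouse means), the growth arrest gene Gadd45a by 0.27 (adjusted p = 0.00283) and the death gene Bid by 0.31 (adjusted p = 0.00709). The DNA repair genes Polk and Xpc fell by 0.48 and 0.18 at R1 (adjusted p = 0.000358 and 0.0188 on the mouse means, where 3.83% of all were called lower). Btg2 (0.29), Ei24 (0.08) and Tigar (-0.12) passed at R1 over all arrays only. At H3 the 6 calls were Sesn1, Btg2, Gadd45a and Bid, between 0.17 and 0.26, and Xpc and Polk, -0.16 and -0.21, none of which passed on the mouse means. At R3 the calls over all arrays were 2 higher and 1 lower (1.59% and 1.6% of all), Sesn1 (0.23), Bid (0.23) and Tigar (-0.15), of which Sesn1 passed on the mouse means (adjusted p = 0.0409) and Bid and Tigar did not (adjusted p = 0.125 and 0.118). At R6 they were 1 higher and 1 lower (0.433% and 0.275% of all), Sesn1 (0.17) and Tigar (-0.14), neither of which passed there (adjusted p = 0.391 and 0.377), and at R12 and R24 there were 0.

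Among 12 genes of the BCL2 family, which set the threshold of cell death, the fit of all arrays called 2 higher at H3, 3 at R1, 2 at R3 and 1 at R6 (2.49%, 3.91%, 1.59% and 0.433% of all probe sets), and 0 lower. Bid, counted in both lists, was among them at H3, R1 and R3. Mcl1 rose by 0.19 at H3 (adjusted p = 0.0174 on the mouse means) and Bcl2l1 by 0.24 at R1 (adjusted p = 0.0473), both inhibitors of death, and the BH3-only gene Bmf stood at 0.26 at R1 (adjusted p = 0.0903). Mcl1 was also called over all arrays at R3 (0.15) and R6 (0.13), and did not pass on the mouse means (adjusted p = 0.125 and 0.512). Among 14 relatives and partners of the members, Ccng2, the other G-type cyclin, fell by 0.38 at H3 and 0.45 at R1 (adjusted p = 6.64e-05 and 1.3e-05 on the mouse means), where its relative Ccng1 passed no test. Plk4, the polo-like kinase of centriole duplication, fell by 0.33 at H3 (adjusted p = 0.00376) and stood at -0.20 at R1 (adjusted p = 0.0768). The cyclin Ccnd1 fell by 0.25 at R3 (adjusted p = 0.0117; 1.6% of all probe sets were called lower over all arrays) and stood at -0.15 at R6 (adjusted p = 0.416), and Pcna, the replication clamp that p21 binds, stood at 0.12 at R1 (adjusted p = 0.146).

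Markers of other cell types were summed for each presumed mouse. At R1 the summed intensity of 7 neuron markers ran from 15850 to 15930 against 15080 to 15700 in the 3 control mice, of 6 oligodendrocyte markers from 9972 to 10280 against 9357 to 9770, and of 7 microglia markers from 2208 to 2257 against 2126 to 2193. These 3 sums were thus wholly above their controls, though a sum is led by its brightest genes. Such offsets were not confined to R1. At R12 the oligodendrocyte sum (9808 to 10120) and the endothelial sum (1119 to 1135 against 946 to 1016) were above their controls. The microglia sum was below its controls at R6 (1904 to 2056). The average changes of single microglia markers at R1 ran from -0.31 to 0.14, and none was called. The sum of 7 astrocyte markers ran from 12240 to 12610 against 11990 to 12240, of 7 endothelial markers from 918 to 998 against 946 to 1016, of 5 choroid plexus markers from 2139 to 3899 against 2038 to 2763, of 6 meningeal markers from 730 to 929 against 797 to 924 and of 4 blood markers from 79.4 to 111 against 79.2 to 115. The only marker of these lists called at R1 in the average over regions was Opalin, of oligodendrocytes (0.56, adjusted p = 0.00644 on the mouse means), and at H3 they were Opalin (0.44), Slc6a13 (0.43) and Slco1a4 (-0.15), with adjusted p on the mouse means of 0.0445, 0.0546 and 0.162.

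More markers were called over all arrays at R3, when Cdkn1a was still high. The endothelial marker Pecam1 was at 0.29 and Flt1, Tek and Slco1a4 at -0.18, -0.20 and -0.22, the astrocyte marker Aldh1l1 was at 0.14, the microglia markers C1qa and C1qb were at 0.23 and 0.21 and Tmem119 and P2ry12 at -0.40 and -0.18, and the blood leukocyte markers S100a8 and S100a9 were at 0.73 and 0.69. Of these, Tmem119 alone passed on the mouse means (adjusted p = 0.000918), and the lowest adjusted p of the others was 0.062, for Pecam1. At R6 the calls were Flt1 (-0.27), Slco1a4 (0.20), Abcb1a (0.19), Csf1r (-0.18), Aif1 (-0.38), Tmem119 (-0.32) and P2ry12 (-0.21), and Tmem119 alone passed on the mouse means (adjusted p = 0.0337). The part of these markers in the member changes was not tested.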

How the data were processed

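The authors deposited linear intensity values with a column per array, the trimmed mean without the extreme 2% of probe sets being equal on all arrays. The submitters' processing notes name GCOS 1.3. The methods describe GCRMA with quantile normalization, which the values do not show, and the step from images to these values is not given in the sources used here. Columns without a sample numbered 0.

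Groups came from the labels. The 64 control probe sets were left out, and log2(intensity + 16) was fitted in R 4.3.3 with limma 3.58.1, statmod 1.5.0 and version 1.17.8 of data.table, with Benjamini-Hochberg adjustment over 45037 probe sets and calls at an adjusted p of 0.05. Between 23.3% and 30.2% of values per array were below 16. Each region was fitted alone. Averages, successive steps and differences between regions came from 1 fit of all arrays in 56 groups with a random block of time point and replicate number (duplicateCorrelation, 0.0369), and again from the 24 means over regions. A regulated probe set had an adjusted F-test p under 0.05 and 1.5-fold with an unadjusted p under 0.05 at a time point. The precision is limited by 3 arrays per group. Alternatives, the methods' t-test among them, were run. The fits were tested on simulated data.

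The annotation named 1 gene for 34945 probe sets, several for 932 and none for 9160. Named genes were every member probe set, list genes called in an average, and the 8 closest probe sets to each of Cdkn1a's. A list gene was represented by its brightest probe set. The members and lists were chosen with earlier results of these data known. Same-numbered arrays of different time points were not taken as paired: of 147 pairs with a control, 48 had a correlation of deviations over 0.1 (median 0.08).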

Additional observations from a re-analysis of the deposited data

How the results depend on the processing

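Of the region calls, 16 in all, the count was 13 with a constant of 1, 20 with trend and robust variances and 16, the same calls, under a constant of 32, quantile normalization or centring on the median. With a filter that kept probe sets above the median level, 11 of the 16 calls were still tested and all 11 passed, while 5 others were called. With replicate number as a block it was 19, the 16 among them, although the labels do not say what same-numbered arrays of different time points share. Leaving out replicate 1, 2 or 3 in all groups left 0 to 4 calls, 4 of them without replicate 3, and the methods' t-test with Benjamini-Hochberg adjustment left 0, with 95 of 735 at an unadjusted p under 0.05 against 114 by limma. The methods adjust an analysis of variance and run the t-test after it, and in that order 11 probe sets were regulated, counted over the regions, against 12 by limma. Averages over the regions numbered 19 calls, between 14 and 21 under the other settings, 20 with replicate number as a fixed block and 14 to 20 when 1 presumed mouse was left out, but 10 when the 7 regions of a mouse were averaged into 24 profiles. The steps between time points fell from 13 to 6 calls in the same way, an alternative added after seeing the data. The difference of the Cdkn1a probe sets at R1 turned from -0.30 to 0.0496 with a constant of 32. No call on an average reversed. Tests between regions gave 0 calls and levels in controls 7 under each alternative run. Leaving out single mice from the 24 profiles, also added after seeing the data, kept Cdkn1a 1424638_at at H3, R1 and R3, and Pmaip1 and Trp53inp1 1416926_at at R1, in all 24 cases. Low intensity limits Cdkn1a 1421679_a_at and Pmaip1.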
